A study of Mus musculus with 7 samples.

Results

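Glycerol kinase, the glycerol channels and the enzymes that supply glycerol 3-phosphate were measured in brown fat taken from mice 3 days old, with or without a knockout of glycerol kinase. The members are 8 genes: Gk (glycerol kinase, older symbol Gyk), Gpd1, Gpd1l, Gpd2, Aqp3, Aqp7, Aqp9 and Pck1. The probe table names 18193 genes, 7 of the members among them. All probe sets of the members were taken, 23 of the 45037 outside the control probe sets, in both groups. Members were chosen by gene and not by a cut on a measured value, but with earlier results of these data known. The probe table used here pairs 0 probe sets with Gk, so the pair of probe sets that the rule of choice names for it was read in its place, here called the first and the second Gk probe set in the order of their numbers. That they measure Gk therefore rests on the rule and not on the probe table.

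All samples were labelled as brown fat of male C57BL/6J mice at 3 days of age, either wild type or knockout (KO). The study's title names a Gyk knockout. There were 4 KO arrays (replicates 1 to 4) and 3 wild-type arrays (replicates 1, 3 and 4), and wild type was the control. No source used here says how the allele was made, which part of the gene it removes or whether animals were pooled. The labels do not say whether each replicate was an animal of its own, and p-values therefore cover only the spread among these 7 arrays, which may be technical.

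Glycerol enters and leaves cells through aquaglyceroporins, the members of the aquaporin family that pass glycerol as well as water, among them Aqp3, Aqp7 and Aqp9. Glycerol kinase phosphorylates glycerol to glycerol 3-phosphate, the backbone onto which fatty acids are placed to make triglycerides. The same intermediate is made from dihydroxyacetone phosphate by the cytosolic glycerol 3-phosphate dehydrogenase Gpd1, and it is oxidised back by the mitochondrial enzyme Gpd2. Together these enzymes form a shuttle that carries reducing power into mitochondria. When glucose is scarce, fat cells make the backbone from pyruvate through glyceroneogenesis, whose rate-setting enzyme is Pck1, the cytosolic phosphoenolpyruvate carboxykinase. White fat has little glycerol kinase, and brown fat is known for having more.

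The 3 members with a probe set past the threshold, over all arrays or with KO replicate 2 left out, were Gk, Aqp7 and Pck1. The 250 bases before their RefSeq start (assembly GRCm38.p6, 5′ to 3′ on the gene's strand) are shown because these are the genes whose transcripts the results turn on. RefSeq gave windows for 7 of the 8 members. Capitals mark every match, on either strand, to TGACG (the core of the cyclic AMP response element), AGGTCA (the core bound by nuclear receptors such as PPARs) or TGTTCT (the core bound by the glucocorticoid receptor).
Pck1 promoter, chr2:173152823-173153072, plus strand: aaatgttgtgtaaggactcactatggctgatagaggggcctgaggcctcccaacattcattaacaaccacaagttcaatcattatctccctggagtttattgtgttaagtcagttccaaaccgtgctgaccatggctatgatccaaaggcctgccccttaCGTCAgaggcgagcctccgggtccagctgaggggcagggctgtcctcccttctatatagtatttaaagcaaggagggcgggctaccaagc
Gk promoter, chrX:85776820-85777069, minus strand: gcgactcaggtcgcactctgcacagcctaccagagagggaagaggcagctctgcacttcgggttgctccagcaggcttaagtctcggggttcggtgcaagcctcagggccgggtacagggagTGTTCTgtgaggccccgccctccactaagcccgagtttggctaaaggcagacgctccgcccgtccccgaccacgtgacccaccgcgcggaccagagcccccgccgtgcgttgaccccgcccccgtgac
Aqp7 promoter, the first of the 2 starts listed, chr4:41048137-41048386, minus strand: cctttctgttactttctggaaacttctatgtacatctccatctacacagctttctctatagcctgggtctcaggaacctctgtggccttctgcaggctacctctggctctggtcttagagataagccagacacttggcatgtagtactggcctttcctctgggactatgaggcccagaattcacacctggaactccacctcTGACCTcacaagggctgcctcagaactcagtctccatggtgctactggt

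The TGACG match in the Pck1 window ran from base -90 to base -86 before the start, on the minus strand. It lies in the stretch where the well-known cyclic AMP response element of this gene is found. The 7 members have 10 windows, since Gpd2, Aqp7 and Aqp9 have 2 listed starts each. TGACG was present in 1 of the 10 windows (Pck1), AGGTCA in 2 (both of Aqp7) and TGTTCT in 3 (Gk, the second window of Aqp7, which is not shown, and the first of Aqp9). The 2 Aqp7 windows overlap, and 1 AGGTCA match (bases -49 to -44 of the first, -223 to -218 of the second) lies in both. Of 32851 RefSeq promoter windows of the same length, 17.8% held TGACG, 14% held AGGTCA and 16.1% held TGTTCT. The full palindrome TGACGTCA (1.55% of windows) and the direct repeat of AGGTCA with 1 base between (0.0335%) had 0 matches in the members. A match describes the letters of the window and nothing more.

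The array labelled KO replicate 2 stood apart from the other KO arrays. On the first principal component it scored -13.8, between the wild-type arrays (-33.3 to -23) and the other KO arrays (33.4 to 35.7). The brightest probe set of Xist, the RNA that coats the inactive X chromosome of female cells, read 2756.7 on it and 182.8 to 272.7 elsewhere, although each label says male. The fitted differences of the member probe sets are therefore given with and without it. It was set apart on values of these same arrays and lay nearer wild type on that component, so leaving it out can widen the differences. The count of changed probe sets went from 431 to 1986 without it, against 7 to 40 when 1 other array was left out. The p-values without it do not allow for this choice. Brown fat markers were present: 0 of 12 tested genes passed (limma, 0 at an unadjusted p under 0.05), the smallest p being those of Cox7a1 (log2 difference -0.22, adjusted p = 0.394) and Plin5 (0.15, 0.545), and the heat-producing uncoupling protein Ucp1 read 26886.6 to 37576.9 on all arrays. Each marker was read on its brightest probe set. For Fabp4 this differed by 0.06, while 1 of its 3 other tested probe sets passed with limma (log2 differences 0.48, 0.57 and 0.08). The highest signal of any probe set was 40460.3, on the brightest of Fabp4, and bright probe sets can be compressed on an array.

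With all arrays, 2 of the 17 member probe sets tested changed, both for Gk and both lower in KO (limma, Benjamini-Hochberg adjusted p under 0.05 over all 27022 tested probe sets). Of all tested probe sets, 1.59% passed, and 0.644% passed as lower in KO. The other 6 member probe sets lay under a filter on low signals and are given by their values only. With KO replicate 2 left out, 4 of 17 passed, against 7.35% of all (4.21% lower and 3.14% higher): both Gk probe sets and 1 of Aqp7 were lower, and 1 of Pck1 was higher. Outside Gk, 6 of 15 tested probe sets had an unadjusted p under 0.05 with all arrays, 4 lower (3 of Gpd2 and 1 of Aqp7) and 2 higher (both of Pck1), against 16.5% of all tested probe sets (8.55% lower and 7.97% higher). The median log2 difference of those 15 was -0.02, beside 0 over all tested.

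**Figure D1:**
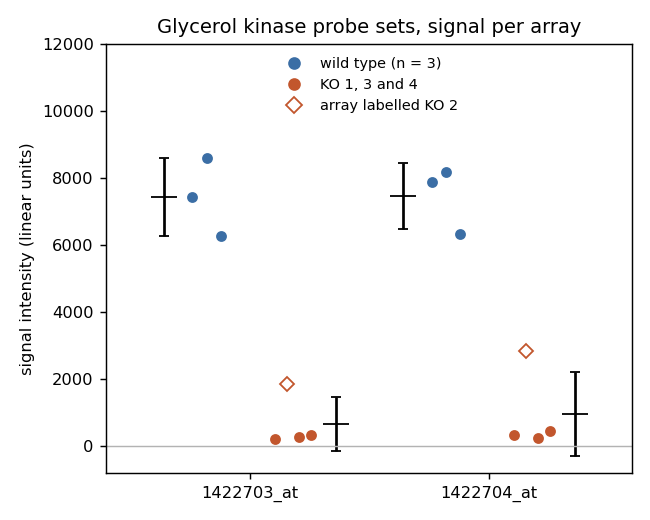
Signal of the 2 probe sets read for Gk on each array (linear signal units on the y axis); blue points are the 3 wild-type arrays, filled orange points KO replicates 1, 3 and 4, and the open diamond the array labelled KO replicate 2. Bars give the mean and SD of each group; the wild-type arrays lie between 6275.3 and 8595.7, 3 KO arrays between 208.2 and 440.6, and the diamond at 1855.2 and 2849.8.

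Glycerol kinase transcript was the member that changed most. On the first Gk probe set the signal was 7425.7, 8595.7 and 6275.3 in wild-type replicates 1, 3 and 4, and 208.2, 1855.2, 257 and 321.6 in KO replicates 1 to 4. On the second it was 7887.7, 8169.2 and 6330.5 in wild type and 327.9, 2849.8, 244.5 and 440.6 in KO. Every KO array lay below every wild-type array on both probe sets, with the array labelled KO replicate 2 the highest of the KO arrays on each. In percent of the wild-type mean, KO replicates 1, 3 and 4 held 2.80% to 4.33% on the first probe set and 3.28% to 5.90% on the second. The array labelled KO replicate 2 held 25% and 38.2%.

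The log2 difference was -4.00 ± 0.56 (SE, n = 4 KO and 3 wild type) on the first probe set, 16-fold lower, with limma adjusted p = 0.0198. On the second probe set the log2 difference was -3.62 ± 0.63, 12.3-fold lower, with limma adjusted p = 0.0277. Fold changes are on the scale of log2(signal + 30.6), which understates the change of low signals. Once the array labelled KO replicate 2 was left out, the falls were 25.6-fold (limma adjusted p = 2.32e-06) and 20.7-fold (limma adjusted p = 7.59e-06). When 1 other array was left out, the log2 difference of the first probe set lay between -4.12 and -3.68, and it passed only without KO replicate 1 (limma adjusted p = 0.0473). The second passed in none of those fits (log2 differences -3.74 to -3.24), and neither probe set passed with a robust variance estimate (limma adjusted p = 0.0636 and 0.116). Whether these probe sets lie in the removed part of the gene is unknown here. The table holds no detection calls, so the 208.2 to 440.6 units left in 3 KO arrays cannot be told apart from background.

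The genes whose signals followed the second Gk probe set most closely over the 7 arrays were Tubb6 (Pearson r = 0.995), Srsf3 (0.994) and Hebp2 (0.993). Tubb6 encodes a tubulin, Srsf3 a splicing factor of the SR family and Hebp2 a heme-binding protein. On all 3 the array labelled KO replicate 2 lay between the groups, for Srsf3 at 578.7 against 208 to 274.9 in the other KO arrays and 967 to 1067.2 in wild type. Each was read on 1 probe set, picked for this likeness, of 2 for Tubb6, 6 for Srsf3 and 3 for Hebp2. The others are not given here. The Srsf3 probe set was lower in KO (log2 difference -1.65, limma adjusted p = 0.0228). Those of Tubb6 (-0.95, adjusted p = 0.0585) and Hebp2 (-1.17, adjusted p = 0.0604) did not pass with limma. These 7 points share 2 groups, so any gene with a like group difference correlates.

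**Figure D2:**
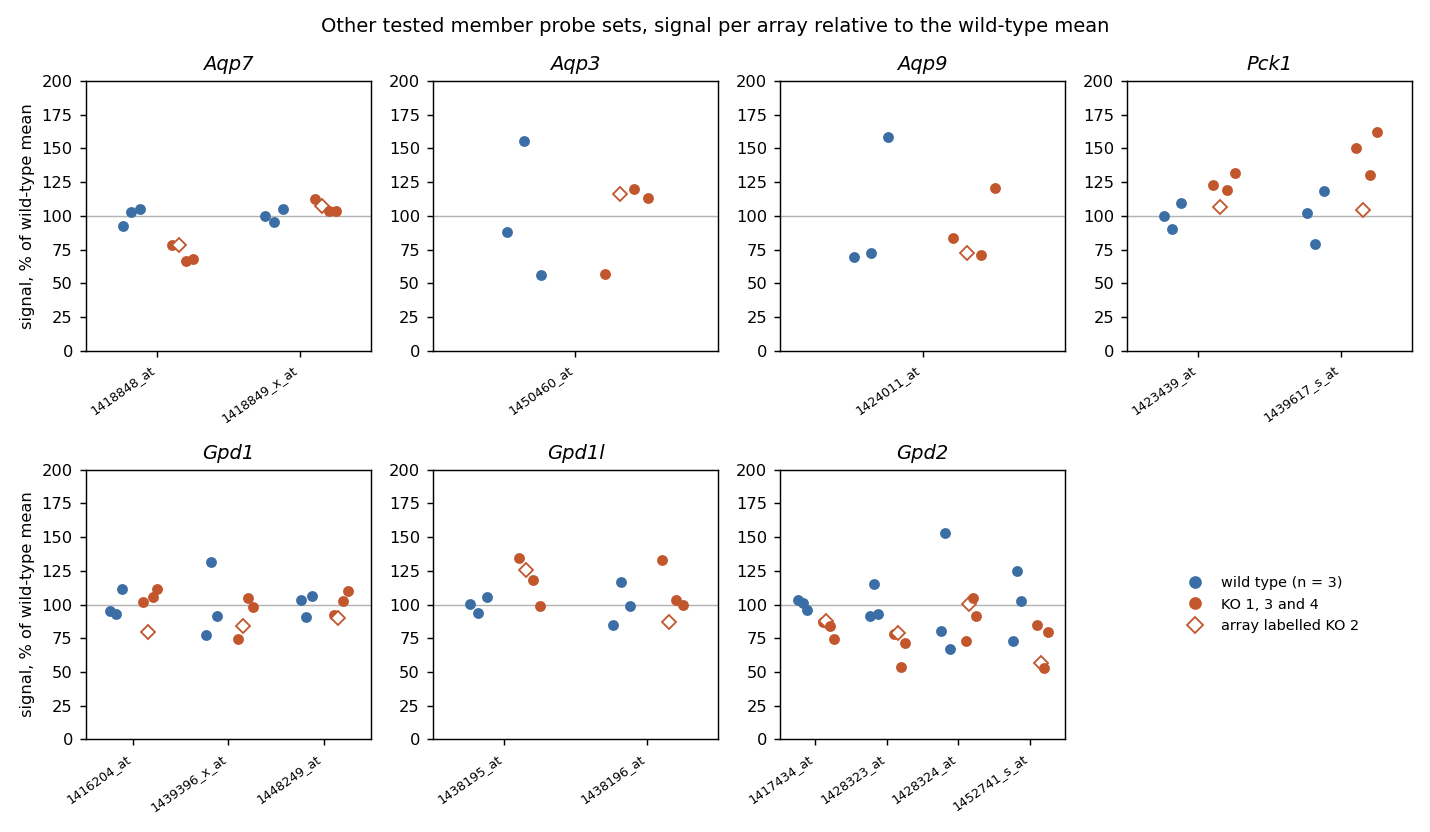
Signal of the 15 tested probe sets of the other members on each array, as a percentage of the wild-type mean of that probe set (y axis); symbols are those of the wild-type arrays (blue), KO replicates 1, 3 and 4 (orange) and the array labelled KO replicate 2 (open diamond). Groups do not overlap on Aqp7 1418848_at, Gpd2 1417434_at and Gpd2 1428323_at, where KO lies lower, and overlap on the other 12.

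Aqp7, the main glycerol channel of fat cells, read lower in KO on 1 of its 2 probe sets. On 1418848_at the signal was 1794, 1984.6 and 2029.5 in wild-type replicates 1, 3 and 4 and 1511.9, 1513.4, 1285.7 and 1317.7 in KO replicates 1 to 4, so the groups did not overlap. On 1418849_x_at it was 2150.9, 2063.8 and 2269.3 in wild type and 2433.3, 2316.4, 2236.4 and 2231 in KO, and the groups overlapped. The log2 difference was -0.45 ± 0.11 (SE) on 1418848_at, 1.37-fold lower, which did not pass with all arrays (limma adjusted p = 0.0745). With KO replicate 2 left out it passed (-0.49, 1.4-fold lower, limma adjusted p = 0.0294). On 1418849_x_at the log2 difference was 0.09 ± 0.10 (95% interval -0.13 to 0.31, limma adjusted p = 0.717), and 0.09 with KO replicate 2 left out.

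The change of 1418848_at was 0.55 lower on the log2 scale than that of 1418849_x_at, in an exact permutation test over the 35 ways to split the 7 arrays (two-sided p = 0.0286, the smallest such a test can give). It was 1 of 9 such pairs within the members, and its adjusted p over these was 0.257. The probe table gives the same accession for both Aqp7 probe sets, and a probe set ending in _x_at may hold probes that also bind other transcripts. For Aqp7 in bulk tissue, as for every gene here, fewer cells of a type and less RNA per cell cannot be told apart. Markers of the capillary endothelium, where this channel is also found, summed to 21955 to 25528 units in wild type and 22655 to 26898 in KO over 10 tested genes, of which 0 passed (limma, 4 at an unadjusted p under 0.05; median -0.03). Of those 4, the vascular growth factor receptor Kdr (log2 difference -0.37, limma adjusted p = 0.154), the sialomucin Emcn (-0.50, 0.218) and the cadherin Cdh5 (-0.30, 0.265) read lower in KO and the receptor Flt1 (0.38, 0.301) higher. Kdr had no overlap between the groups, at 2091.4 to 2722.3 in wild type and 1674.8 to 2037.1 in KO. Of all tested probe sets, 16.5% had an unadjusted p under 0.05 with limma and 14.7% had groups that did not overlap. The part of these endothelial genes in the Aqp7 reading was not tested.

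Aqp3, the glycerol channel of skin and kidney, was dim on all 4 of its probe sets. Only 1450460_at was tested: it read 117, 206.9 and 74.4 in wild type and 75.7, 153.9, 159.5 and 150.3 in KO, with overlapping groups. Its log2 difference was 0.06 ± 0.31 (95% interval -0.63 to 0.75, limma adjusted p = 0.951), and a difference within that interval was not detectable. With KO replicate 2 left out it was 0 ± 0.34. The untested 1422007_at, 1422008_a_at and 1447727_at read 1.2 to 58.9 on all arrays, and the highest value on each came from wild-type replicate 3. Keratinocyte markers summed to 1049 to 2182 units in wild type and 1164 to 1366 in KO over 6 tested genes, and their highest sum was also that of a wild-type array.

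Aqp9, the glycerol channel of liver, was also dim. On the tested 1424011_at it read 70, 73.6 and 160.2 in wild-type replicates 1, 3 and 4 and 84.6, 73.3, 72.1 and 122.4 in KO replicates 1 to 4 (log2 difference -0.11 ± 0.29, limma adjusted p = 0.903, and -0.05 ± 0.32 with KO replicate 2 left out). The high arrays were wild-type replicate 4 and KO replicate 4, 1 of each genotype. Albumin (Alb), the main protein of hepatocytes, was highest on the same arrays, at 9470.4 and 4810.1, against 411.3 to 4128.5 on the other 5. Hepatocyte markers summed to 1861 to 21076 units in wild type and 1267 to 11972 in KO over 7 tested genes, of which 0 passed (limma, 0 at an unadjusted p under 0.05). Their part in the Aqp9 reading was not tested. The untested 1421605_a_at read 51 to 77.1 in wild type and 9.1 to 79.9 in KO.

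Pck1 was higher in 3 of 4 KO arrays than in any wild-type array on both bright probe sets. On 1423439_at the signal was 14938, 13466 and 16353 in wild-type replicates 1, 3 and 4 and 18373, 15897, 17738 and 19617 in KO replicates 1 to 4. On 1439617_s_at it was 10493, 8087 and 12145 in wild type and 15428, 10654, 13323 and 16625 in KO. In each case the array labelled KO replicate 2 lay within the wild-type range and the other KO arrays above it. The log2 differences were 0.26 ± 0.11 (1.2-fold, limma adjusted p = 0.256) and 0.45 ± 0.17 (1.37-fold, limma adjusted p = 0.219), and neither passed with all arrays.

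With KO replicate 2 left out, Pck1 read 1.49-fold higher on 1439617_s_at and passed (log2 difference 0.57 ± 0.15, limma adjusted p = 0.0471). That fit leaves out the 1 KO array within the wild-type range, a choice its p-value does not allow for. On 1423439_at the difference was 1.25-fold and did not pass (0.32 ± 0.10, limma adjusted p = 0.094). The third probe set, 1455209_at, was untested at 18.6 to 60.2 units. Pck1 is also strongly expressed in liver. Alb read 2865.5, 569.3 and 9470.4 in wild-type replicates 1, 3 and 4 and 492.8, 4128.5, 411.3 and 4810.1 in KO replicates 1 to 4. Within each genotype the array with the highest Alb, replicate 4, also had the highest 1439617_s_at, and in wild type replicate 3 was lowest on both. Among the KO arrays the order did not hold, as replicate 2 had the next highest Alb (4128.5) and the lowest 1439617_s_at (10654). KO replicates 1 and 3, with the lowest Alb of all arrays, lay above every wild-type array on 1439617_s_at. The part of hepatocyte RNA in the Pck1 reading was not tested.

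Gpd1, the cytosolic enzyme that makes glycerol 3-phosphate from dihydroxyacetone phosphate, did not differ detectably. On 1448249_at it read 20165, 17741 and 20740 in wild type and 18024, 17620, 20125 and 21499 in KO. On 1416204_at it read 17118, 16666 and 20047 in wild type and 18344, 14261, 18908 and 20068 in KO. The groups overlapped on both, with log2 differences of -0.02 (95% interval -0.26 to 0.22) and -0.01 (-0.30 to 0.28). Signals this bright can be compressed, which these intervals do not cover. The dimmer 1439396_x_at differed by -0.12 ± 0.19 (limma adjusted p = 0.821), and 1456732_at was untested at 2.5 to 13 units. Leaving out KO replicate 2 gave 0.02, 0.09 and -0.09 for 1448249_at, 1416204_at and 1439396_x_at, none of which passed (limma adjusted p = 0.926, 0.66 and 0.852).

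Gpd1l encodes a second cytosolic protein of the same family. On 1438195_at it read 2376.6, 2218.7 and 2491.1 in wild type and 3175.5, 2968.3, 2785.8 and 2337.1 in KO. KO replicates 1, 2 and 3 lay above all wild-type arrays and KO replicate 4 among them. The log2 difference was 0.24 ± 0.12 (1.18-fold, limma adjusted p = 0.355). The other probe set, 1438196_at, read 656.7 to 900.4 in wild type and 674.3 to 1031.3 in KO (log2 difference 0.07 ± 0.16, limma adjusted p = 0.877). With KO replicate 2 left out the differences were 0.22 and 0.16 (limma adjusted p = 0.37 and 0.634).

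Gpd2, the mitochondrial enzyme that oxidises glycerol 3-phosphate, read lower in KO on its bright probe sets without passing the test. On 1417434_at the signal was 10512, 10268 and 9738.7 in wild type and 8850.8, 8915.8, 8555.8 and 7590.1 in KO. On 1428323_at it was 8310.9, 10455 and 8453.9 in wild type and 7097, 7145.8, 4836.7 and 6515 in KO. On both, every KO array lay below every wild-type array, the array labelled KO replicate 2 included. Of all tested probe sets, 14.7% had groups that did not overlap, 7.25% with KO lower, and of the member probe sets 5 of 17 did, each with KO lower.

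The log2 difference of Gpd2 was -0.26 ± 0.10 on 1417434_at (1.2-fold lower, limma adjusted p = 0.203) and -0.51 ± 0.15 on 1428323_at (1.42-fold lower, limma adjusted p = 0.117). Leaving out KO replicate 2 gave -0.29 (limma adjusted p = 0.109) and -0.57 (limma adjusted p = 0.0521). The third, 1452741_s_at, read 968.5, 1656.6 and 1358.9 in wild type and 1126.7, 748.6, 702.8 and 1057.1 in KO (-0.53 ± 0.21, limma adjusted p = 0.239), with overlapping groups, and differed by -0.45 with KO replicate 2 left out (limma adjusted p = 0.272). The dim 1428324_at read 102.3 to 233.7 in wild type and 111.3 to 160.4 in KO (-0.04 ± 0.26, and -0.07 ± 0.28 with KO replicate 2 left out). Against the brightest, 1417434_at, none of the other Gpd2 probe sets differed past the threshold in an exact permutation test (p = 0.286 to 0.457). With 35 splits the smallest possible p is 0.0286, so this test says little on whether they agree.

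**Figure D3:**
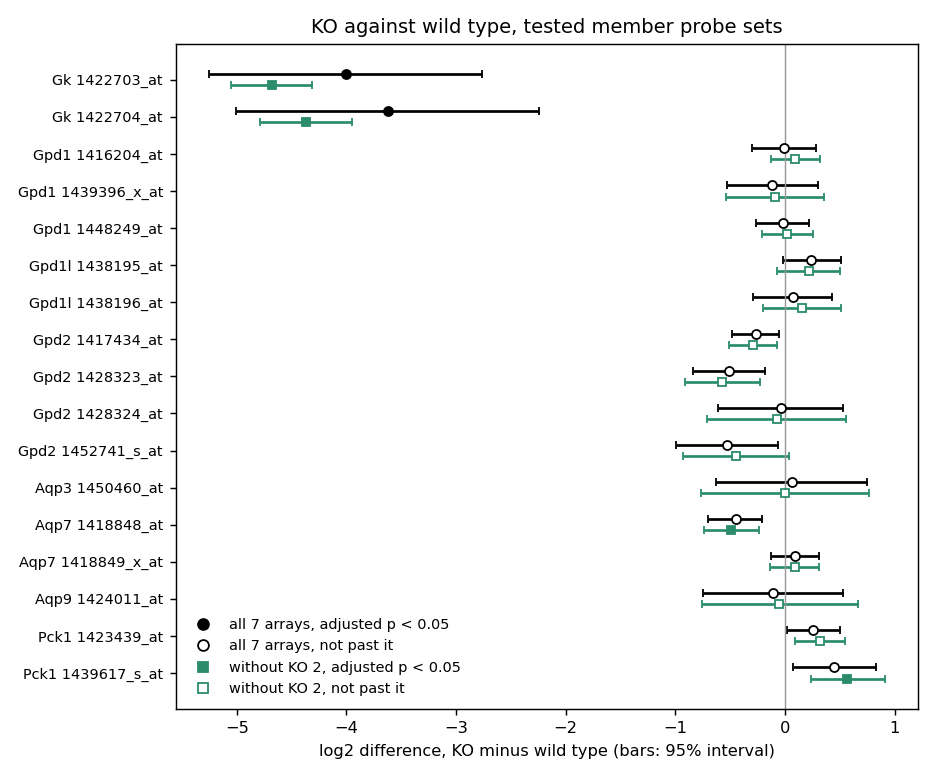
Log2 difference of KO minus wild type for the 17 tested member probe sets (x axis), with 95% intervals; black circles are all 7 arrays and green squares leave out the array labelled KO replicate 2, and filled symbols passed an adjusted p of 0.05 with limma. With all arrays only the 2 Gk probe sets are filled, and without that array Aqp7 1418848_at and Pck1 1439617_s_at are filled too.

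The array labelled KO replicate 2 did not take the same place in each member. On the linear signal it lay 77.8% and 64.7% of the way from the wild-type mean to the mean of the other KO arrays on the Gk probe sets, but 42.2% and 31.3% of the way on the log2(signal + 30.6) scale, so which group it was nearer to for the kinase depends on the scale. It lay 74.9% of the way on Aqp7 1418848_at (70.9% on the log2 scale), and 68.3% and 65.9% on Gpd2 1417434_at and 1428323_at (65.3% and 58.9%). On the Pck1 probe sets 1423439_at and 1439617_s_at it lay 26.7% and 8.45% of the way (30.1% and 13.3%). On both scales it was nearer the other KO arrays for these probe sets of Aqp7 and Gpd2 and nearer wild type for Pck1, as a description with no test.

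The arrays also fall into 2 ranges of accession numbers, the first with wild-type replicate 1 and KO replicates 1 and 2, the second with the other 4 arrays. The log2 difference within the first and the second range was -3.47 and -4.53 for the first Gk probe set, -0.24 and -0.61 for Aqp7 1418848_at, -0.22 and -0.74 for Gpd2 1428323_at, and 0.29 and 0.59 for Pck1 1439617_s_at. Each kept its sign in both ranges. The first range has 1 wild-type array and so no spread within wild type. With only the second range, Gk and Aqp7 1418848_at passed (limma adjusted p = 0.000268 for the first Gk probe set and 0.0438 for Aqp7).

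**Figure D4:**
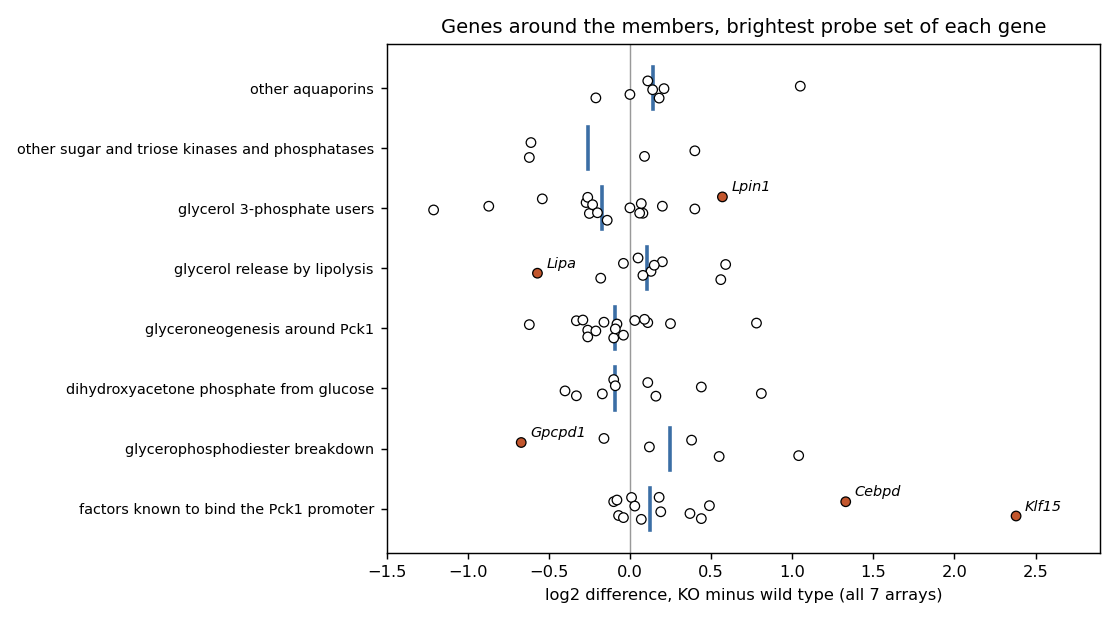
Log2 difference of KO minus wild type (x axis, all 7 arrays) for the 82 tested genes of 8 lists around the members, each point the brightest probe set of 1 gene and each blue bar the list's median. Filled points passed with limma: Lpin1, Cebpd and Klf15 higher, Lipa and Gpcpd1 lower.

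Around the members, 5 of 82 tested genes in 8 lists changed with all arrays, 3 higher and 2 lower (limma). Each gene was read on its brightest probe set, and of all 13103 genes read this way 1.84% passed, 1.12% higher and 0.717% lower. Leaving out KO replicate 2 took the count to 17, 11 higher and 6 lower, against 8.39% of all genes, 3.39% higher and 5.0% lower. With all arrays, 29 of the 82 had an unadjusted p under 0.05 with limma, beside 16.5% of all tested probe sets. That share was not computed for 1 probe set per gene, and the unadjusted counts of single lists below are to be set beside it. The lists were chosen with earlier results of these data known, which the shares over all genes do not allow for. An excess over those shares is therefore not read as a result.

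Among enzymes that act on sugars, trioses or glycerol 3-phosphate beside the members, 0 of 4 tested genes passed with all arrays (limma, 3 at an unadjusted p under 0.05; median -0.26). Pgp, a phosphatase that removes the phosphate of glycerol 3-phosphate, read 2706.6, 2691.3 and 2223 in wild type and 3594.9, 2933, 3404.4 and 3506.3 in KO, with no overlap (1.32-fold higher, limma adjusted p = 0.118). Its other tested probe set, at a log2 difference of 0.19, did not pass either. Tkfc, the kinase of dihydroxyacetone and glyceraldehyde, read 324.9 to 381.2 in wild type and 190.3 to 235.2 in KO (1.52-fold lower, limma adjusted p = 0.0786). Fggy, which belongs to the same family of carbohydrate kinases as glycerol kinase, was 1.54-fold lower (limma adjusted p = 0.103). All 3 passed when KO replicate 2 was left out, Pgp higher and the others lower (limma adjusted p = 0.0319, 0.039 and 0.0121). The related kinase Gk5 read 333.3 to 427.7 in wild type and 379.7 to 404.1 in KO (log2 difference 0.09 ± 0.14), and Gk2 lay under the filter.

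Of the other aquaporins, 0 of 7 tested genes passed with or without that array (limma, 1 at an unadjusted p under 0.05 each time; median 0.14). Aqp1, the water channel of capillaries and red cells, read 5867.8 to 6800.4 in wild type and 5613.9 to 9190.8 in KO (limma adjusted p = 0.621). Aqp6 had the smallest p, at 43, 126.8 and 52.5 in wild type and 198.4, 145.1, 150.1 and 210.4 in KO (limma adjusted p = 0.0978), on 1 of its 2 tested probe sets, while the other differed by 0.20.

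Glycerol is set free when triglycerides are broken down. Of 10 tested genes of this step 1 changed with all arrays (median 0.11): Lipa, the lysosomal acid lipase, was 1.49-fold lower, with wild type at 4692.9 to 5262.7 and KO at 3099.3 to 4118.7 (limma adjusted p = 0.0462, and 1.59-fold with KO replicate 2 left out). Abhd6, a monoacylglycerol lipase, read 887.3 to 1178.1 in wild type and 1312.7 to 1641.1 in KO (1.5-fold higher, limma adjusted p = 0.0579), but its other tested probe set differed by -0.04. Pnpla2 and Lipe, the main cytosolic lipases, differed by 0.20 and 0.13 (limma adjusted p = 0.461 and 0.615). The other tested probe set of Pnpla2 differed by 0.72 and did not pass. When KO replicate 2 was left out, Abhd6 and Abhd5, the activator of Pnpla2, rose as well (limma adjusted p = 0.0392 and 0.0122).

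Another list holds genes that make lipids on the glycerol backbone, not all of which act on glycerol 3-phosphate itself. Of its 16 tested genes 1 changed with all arrays (median -0.17), the phosphatidate phosphatase Lpin1, 1.49-fold higher. It read 6025.2 to 6778.9 in wild type and 8152.7 to 10942.3 in KO (limma adjusted p = 0.0393, and 1.57-fold with KO replicate 2 left out). Its other tested probe set, at a log2 difference of 0.49, did not pass. Gpam, the mitochondrial acyltransferase of glycerol 3-phosphate, read 11224 to 13812.2 in wild type and 12005.1 to 14281.6 in KO (log2 difference 0 ± 0.11). Gpat3, another such acyltransferase, read 2258.6, 2309 and 3000.9 in wild type and 676.4, 2234.2, 1043.2 and 810.1 in KO. It was 2.94-fold lower with KO replicate 2 left out (limma adjusted p = 0.00109) and did not pass with it (limma adjusted p = 0.092).

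The steps around Pck1 in glyceroneogenesis had 0 of 16 tested genes changed with all arrays (limma, 4 at an unadjusted p under 0.05; median -0.10). The mitochondrial isoform Pck2 read 868.2, 858.7 and 658.7 in wild type and 1416.4, 1047.6, 1960.2 and 1247.5 in KO, without overlap (1.72-fold higher, limma adjusted p = 0.0746). It passed once KO replicate 2 was left out (1.88-fold, limma adjusted p = 0.0148). Slc25a1, the citrate carrier, was second (log2 difference -0.33, limma adjusted p = 0.179), and Pcx, the pyruvate carboxylase of the first step, differed by 0.11 (limma adjusted p = 0.666).

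Of 14 factors known to bind or act at the Pck1 promoter, 2 were higher and 0 lower with all arrays (median 0.12). Klf15, which is induced by glucocorticoids and fasting, read 253.7, 235.2 and 137.6 in wild type and 1824.1, 489.5, 1329.5 and 1651.2 in KO (5.22-fold, limma adjusted p = 0.0228, and 6.94-fold with KO replicate 2 left out). Cebpd read 581.4 to 661.7 in wild type and 1217.4 to 2269 in KO (2.51-fold, limma adjusted p = 0.0217, and 2.7-fold with KO replicate 2 left out), with its other tested probe set at a log2 difference of 0.79 that did not pass. Rxra, the partner of PPARs, did not pass with all arrays (limma adjusted p = 0.085) and rose when KO replicate 2 was left out (log2 difference 0.55, limma adjusted p = 0.0256). Its other tested probe set differed by 0.4 with all arrays and did not pass. Pparg, Cebpa and Nr3c1, the glucocorticoid receptor, differed by 0.01, 0.03 and -0.10 with all arrays (limma adjusted p = 0.986, 0.931 and 0.719).

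Glucose uptake and glycolysis down to dihydroxyacetone phosphate had 0 of 9 tested genes changed with all arrays (limma, 3 at an unadjusted p under 0.05; median -0.09). With KO replicate 2 left out, the glucose transporter Slc2a1 (1.91-fold, limma adjusted p = 0.049) and the hexokinase Hk2 (1.45-fold, limma adjusted p = 0.0471) rose and the phosphofructokinase Pfkl fell (1.42-fold lower, limma adjusted p = 0.0165). With all arrays, the other tested probe sets of Slc2a1 (log2 differences 0.58 and 0.54) and Pfkl (-0.63 and -0.11) did not pass. Glycerol 3-phosphate is also released from glycerophosphodiesters, and 1 of 6 tested genes of that step changed. Gpcpd1, which splits glycerophosphocholine, read 1743 to 2245.5 in wild type and 1108.5 to 1377.7 in KO (1.6-fold lower, limma adjusted p = 0.0342, and 1.65-fold with KO replicate 2 left out), while its other 2 tested probe sets, at -0.44 and -0.17, did not pass. Pnpla6, a lysophospholipase, had the next smallest p (0.38 higher on the log2 scale, limma adjusted p = 0.141), and its relative Pnpla7 rose when KO replicate 2 was left out (limma adjusted p = 0.0239).

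Markers of other cell types gave 1 change with all arrays over 8 lists, the neutrophil and myeloid gene Chil3 (4.26-fold higher, limma adjusted p = 0.034, and 5.58-fold with KO replicate 2 left out). Of all 13103 genes read on their brightest probe set, 1.84% passed with all arrays. Chil3 was the 1 of 8 tested neutrophil genes that passed, and 5 had an unadjusted p under 0.05 with limma, beside 16.5% of all tested probe sets. All 8 had positive log2 differences, with a median of 0.60, among them the granule genes Camp (1.46, limma adjusted p = 0.0952), Lcn2 (0.94, 0.102) and Ngp (0.65, 0.0954). The summed neutrophil signal was 4525 to 6952 units in wild type and 6437 to 11377 in KO. The erythroid, keratinocyte, skeletal muscle, hepatocyte, endothelial, macrophage and kidney tubule lists had 0 of 5, 6, 9, 7, 10, 9 and 4 tested genes past the threshold (limma, 1, 1, 1, 0, 4, 1 and 0 at an unadjusted p under 0.05). Summed signals overlapped between the groups in each of these lists. The smallest p of each belonged to Tfrc (log2 difference -0.75) and Slc4a1 (-0.35), Krt10 (-0.52) and Krt5 (-0.29), Myh3 (0.55) and Mylpf (-0.32), G6pc (-0.31) and Ahsg (-0.97), Kdr and Emcn, Lyz2 (0.51) and Cd68 (-0.37), and Lrp2 (0.15) and Pax8 (-0.18), in the order of the lists. Their limma adjusted p ran from 0.154 to 0.824. With KO replicate 2 left out, 3 of 8 neutrophil genes (Chil3, Ngp and Lcn2) passed as higher in KO with limma. So did 1 of 9 macrophage genes (Lyz2), while 1 of 5 erythroid genes (Tfrc) passed as lower. Of all genes read this way, 8.39% passed without that array. The median log2 differences of these lists were then 0.66, -0.12 and -0.2, so Lyz2 went against the median of its list. The part of any marker in the member results was not tested.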

How the data were processed

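Total RNA of brown fat, extracted with Trizol and labelled with biotin per the labels' protocols, was hybridised to 1 array per sample (4 KO, 3 wild type). The deposited values are signal intensities on a linear scale, 1 per probe set and array. The submitters' processing notes name GCOS 1.2 and no source used here states how it scaled the arrays. After trimming 2% at each end the mean was 500 on all arrays, with array medians of 131.5 to 154, and this scaling was kept. No detection calls were used here. Precision is limited by how many arrays there are.

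Of 45101 probe sets 64 controls were left out. The probe table gave 1 symbol for 34945 of the rest, several for 932 and none for 9160. The scale of analysis was log2(signal + 30.6), where 30.6 is the 20th percentile over the table. Probe sets with a mean log2 value under the 40th percentile were left out, which left 27022. KO was compared with wild type by limma 3.58.1 in R 4.3.3 (two-sided, mean-variance trend, no covariate), with Benjamini-Hochberg adjustment over all tested probe sets and a threshold of 0.05. Means are of signals with SD, and log2 differences have their SE. Probe sets of 1 gene were compared by exact permutation over arrays.

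The text names all member probe sets, every list gene that passed, the 2 genes of smallest p in a list where fewer than 2 passed, and the 3 genes most like the called member. Pgp, Gpam, Pnpla2, Lipe, Abhd5, Gk5, Gk2, Pcx, Ucp1, Fabp4, Alb, Pparg, Cebpa, Nr3c1, Rxra, Hk2, Pnpla7, Lcn2, Ngp, Cdh5, Flt1 and Xist are outside that rule and were named with their values known. Members and lists were chosen with earlier results of these data known. The alternatives were other scalings, offsets, filters and variance models, array weights, the replicate number as a block, the accession range, and leaving out each array.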

Additional observations from a re-analysis of the deposited data

Results flagged for a closer look

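In the 4 KO arrays the highest or lowest value stood far from the others in 3 of the 23 member probe sets, by Dixon's ratio of the gap to the whole range, where chance alone marks about 1 in 20. On both Gk probe sets this was the array labelled KO replicate 2, at 1855.2 on the first (ratio 0.931) and 2849.8 on the second (0.925). On Aqp3 1450460_at it was KO replicate 1, low at 75.7 (0.89), with wild-type replicate 4 as low at 74.4.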

How the results depend on the processing

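The count of changed probe sets was 431. It was 235 with array median scaling, 100 without the filter, 6 without the mean-variance trend, 1312 with array weights, 726 in the second accession range alone and 2183 with the replicate block. Leaving out 1 array gave 7 to 1986. The member count of 2 became 1 without the filter and 4 with the block. It was 0 (limma) without the trend (5 at an unadjusted p under 0.05) and with a robust variance (8 at an unadjusted p under 0.05), and 0 to 4 when 1 array was left out. The count of 5 in the lists around the members became 12 with array weights and 15 with the block. It was 0 (limma) without the trend (23 at an unadjusted p under 0.05), and 0 to 17 when 1 array was left out. The cause was not tested.

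The labels give replicate numbers but no pairing. Deviations from the group means correlated at 0.0567, 0.149 and 0.105 for numbers 1, 3 and 4, below 0.1 only for number 1. These values do not settle whether the numbers pair the samples. Wild-type replicates 3 and 4 were nearest the KO arrays of their own number, and wild-type replicate 1 was nearest KO replicate 2. KO replicate 2 has no wild-type partner, so the replicate block takes it out of the comparison. With the block both Gk probe sets, Aqp7 1418848_at (adjusted p = 0.043) and Pck1 1439617_s_at (0.012) passed in limma. Aqp7 1418848_at also passed with array weights (0.031).

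Of 320 values of the 17 tested member probe sets under alternatives, 25 changed sign, all in differences near 0 that passed in no fit. Gpd1 1416204_at was 0 with median scaling, 0.02 with array weights or the accession range, 0.09 with the replicate block and in the second range, and -0.07 to 0.09 when 1 array was left out. Gpd1 1448249_at was 0 with array weights, 0.02 with the block, 0.12 in the second range and -0.09 to 0.03 leaving out 1 array. Gpd1l 1438196_at was -0.08 in the second range and -0.04 to 0.18 leaving out 1 array, and Aqp3 1450460_at was 0 with the block and -0.22 to 0.37. Leaving out 1 array also gave -0.28 to 0.09 for Gpd1 1439396_x_at, -0.24 to 0.26 for Gpd2 1428324_at and -0.27 to 0.19 for Aqp9 1424011_at. The bright probe sets of Gk, Gpd2, Aqp7 and Pck1 kept their sign under all alternatives run. Dim probe sets near the offset, as those of Aqp3 and Aqp9, limit what can be seen of these genes.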
